A study of Capra hircus with 4 samples.

Results

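Expression of fibroblast growth factor (FGF) genes was examined in nuclei isolated from goat ovaries. The set was given by name and comprised the ligand genes FGF1, FGF2 and FGF10, the FGF homologous factor genes FGF12 and FGF14, and the receptor genes FGFR1, FGFR2 and FGFR3. Of these 8 genes, 7 were found under their names among the 28944 genes of the count matrices, and FGFR3 was not analysed here. The rule held names alone, and the names were proposed with earlier results of these data known. The ovaries came from 2 Nubian goats of a polytocous group, which the labels define by a litter size of at least 3, and from 2 Du'an goats of a monotocous group with a litter size of 1. All 4 animals were about 3 years old and had received 300 mg of progesterone from a controlled internal drug release device over 17 days to synchronise oestrus, with no hormone that induces superovulation. A single droplet library (10x Genomics 3′ chemistry, unique molecular identifiers, UMIs) was made from the ovary of each goat, so breed, litter size and the individual animals cannot be told apart.

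FGF1, FGF2 and FGF10 encode secreted proteins that bind heparan sulfate and activate receptor tyrosine kinases, of which FGFR1 and FGFR2 are widely used examples. Receptor activation engages the adaptor FRS2 and the RAS-MAPK relay and induces feedback inhibitors such as the Sprouty and DUSP proteins. FGF12 and FGF14 share the FGF fold but stay inside the cell, where they bind voltage-gated sodium channels. In the ovary, FGF signalling is known from exchange between granulosa cells, theca cells, stroma and vessels. Splice forms of the receptors with different ligand preferences cannot be separated by UMI counts taken at the 3′ end of transcripts.

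In all, 44740 of 48332 nuclei passed quality control, with 29800057 to 53959284 UMIs per goat. Clustering, from which the FGF genes and the listed pathway and marker genes had been left out, gave 15 classes, 14 of them named by marker genes and therefore given the suffix "-like". Cluster 3 held 4959 nuclei and met the limits for naming with no marker list, and 4738 nuclei of shallow or unclear clusters were set aside. The named classes ranged from 124 ciliated-like to 8362 smooth muscle-like nuclei. Ciliated-like sums existed for Du'an 2 and Nubian 2, fibroblast-like sums for Du'an 1, Du'an 2 and Nubian 1, and mural granulosa-like sums for Du'an 2, Nubian 1 and Nubian 2, because a sum required at least 20 nuclei. Cluster 3 came mainly from Du'an 1 (2024 nuclei) and Nubian 2 (2827 nuclei), with 60 and 48 nuclei in Du'an 2 and Nubian 1. The summed level of stromal markers in smooth muscle-like nuclei, 4415 to 5605 CPM (a gene's UMIs scaled to 1000000 UMIs of a class in a goat), was higher than that of smooth muscle markers, at 2124 to 3723 CPM. Pericyte-like nuclei carried as much of the smooth muscle markers, 2021 to 3449 CPM, with 783 to 1100 CPM of pericyte markers and 2944 to 5982 CPM of stromal markers. Epithelial-like nuclei carried 203 to 452 CPM of epithelial markers (mean 313 CPM), and ciliated-like nuclei had the highest mean (349 CPM), at 298 to 399 CPM. The epithelial-like nuclei also carried 348 to 749 CPM of T or natural killer markers (mean 591 CPM). Blood endothelial markers summed there to 342 to 896 CPM (mean 601 CPM). The 8 oocyte markers together reached at most 25.0 CPM in any class and goat. Markers of mural granulosa cells were counted in every class, with means outside mural-like nuclei from 567 CPM (ciliated-like) to 3000 CPM (cycling granulosa-like). They summed to 968 to 4858 CPM in theca-like nuclei, and in fibroblast-like nuclei to 38.6 CPM in Du'an 1, 548 CPM in Du'an 2 and 1958 CPM in Nubian 1. In T or natural killer-like nuclei they summed to 231 to 1867 CPM, and in blood endothelial-like nuclei to 134 to 1977 CPM. Granulosa markers summed to 1544 to 2451 CPM in common progenitor-like nuclei and to 2694 to 4160 CPM in cluster 3. The sums were 5901 to 7897 CPM in cumulus-like and 5551 to 9577 CPM in mural-like nuclei. Cluster 3 was kept as a class of its own, among the other classes when a granulosa-like class was tested against them. Stromal markers reached 666 to 2807 CPM in common progenitor-like, 364 to 856 CPM in cumulus-like and 412 to 1704 CPM in mural-like nuclei. The part of such nuclei or free RNA in the results was not tested. Between 54 and 131 barcodes were shared by each pair of libraries.

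The 7 genes differed widely in the number of UMIs behind their values. FGF10 was counted 438 times in the retained nuclei, FGF2 5706 times, FGFR1 5769 times, FGF1 7191 times, FGFR2 12662 times, FGF14 42209 times and FGF12 83074 times. The level of a gene was compared only between classes, goats or breeds and not with that of another gene, since gene length and capture differ. In each contrast 1 class was set against the average of the remaining classes by edgeR's quasi-likelihood test on UMI sums per goat. The goat was a block, and p-values were adjusted over the 14893 genes tested. The spread of a gene was estimated once over the sums of all 15 classes, after class and goat effects. The p-value of a class therefore does not measure how that class alone varies between goats. Of 105 gene and class pairs, 33 were higher and 38 lower at an adjusted p below 0.05. Over all genes the same contrasts called 17.5% of pairs higher and 10.8% lower. These counts and those by class include calls of FGF10. It passed the count filter mainly through classes where it was high, so its calls are no independent support.

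Seen by class, epithelial-like nuclei had the most higher calls, 5 of the 7 genes with 0 lower, where 15% of all genes were higher and 9.01% lower. In smooth muscle-like nuclei 4 were higher and 0 lower (17.8% and 3.55% of all genes), and in pericyte-like nuclei also 4 and 0 (7.62% and 4.23%). Common progenitor granulosa-like nuclei had 4 higher and 1 lower (17.5% and 9.45%), ciliated-like nuclei 4 and 1 (16.4% and 9.11%) and cluster 3 had 3 and 1 (13% and 9.3%). In fibroblast-like nuclei the counts were 3 and 2 (11.9% and 3.75%), in blood endothelial-like nuclei 2 and 3 (20.8% and 8.34%), in cumulus granulosa-like nuclei 2 and 2 (19.9% and 14.1%), in cycling granulosa-like nuclei 1 and 3 (18.4% and 17.8%) and in theca-like nuclei 1 and 3 (7.35% and 9.09%). The remaining classes had no higher call by edgeR, with 4 lower in lymphatic endothelial-like (18.4% higher and 7.03% lower of all genes), 5 in mural granulosa-like (17.8% and 13.6%), 6 in macrophage-like (30.6% and 21.8%) and 7 in T or natural killer-like nuclei (30.1% and 21.4%). Some of these counts rested on 1 goat. Without Nubian 2, higher calls fell from 5 to 3 in epithelial-like nuclei, fewer than the 4 in common progenitor-like and pericyte-like nuclei, and ciliated-like nuclei had 1 higher and 0 lower call. Without Du'an 1, pericyte-like nuclei had 2 higher calls. Lower calls in cycling granulosa-like nuclei were 1 without Du'an 2 or Nubian 1, in theca-like nuclei 1 without Du'an 2, and in fibroblast-like nuclei 0 without any of Du'an 1, Du'an 2 or Nubian 1.

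**Figure D1:**
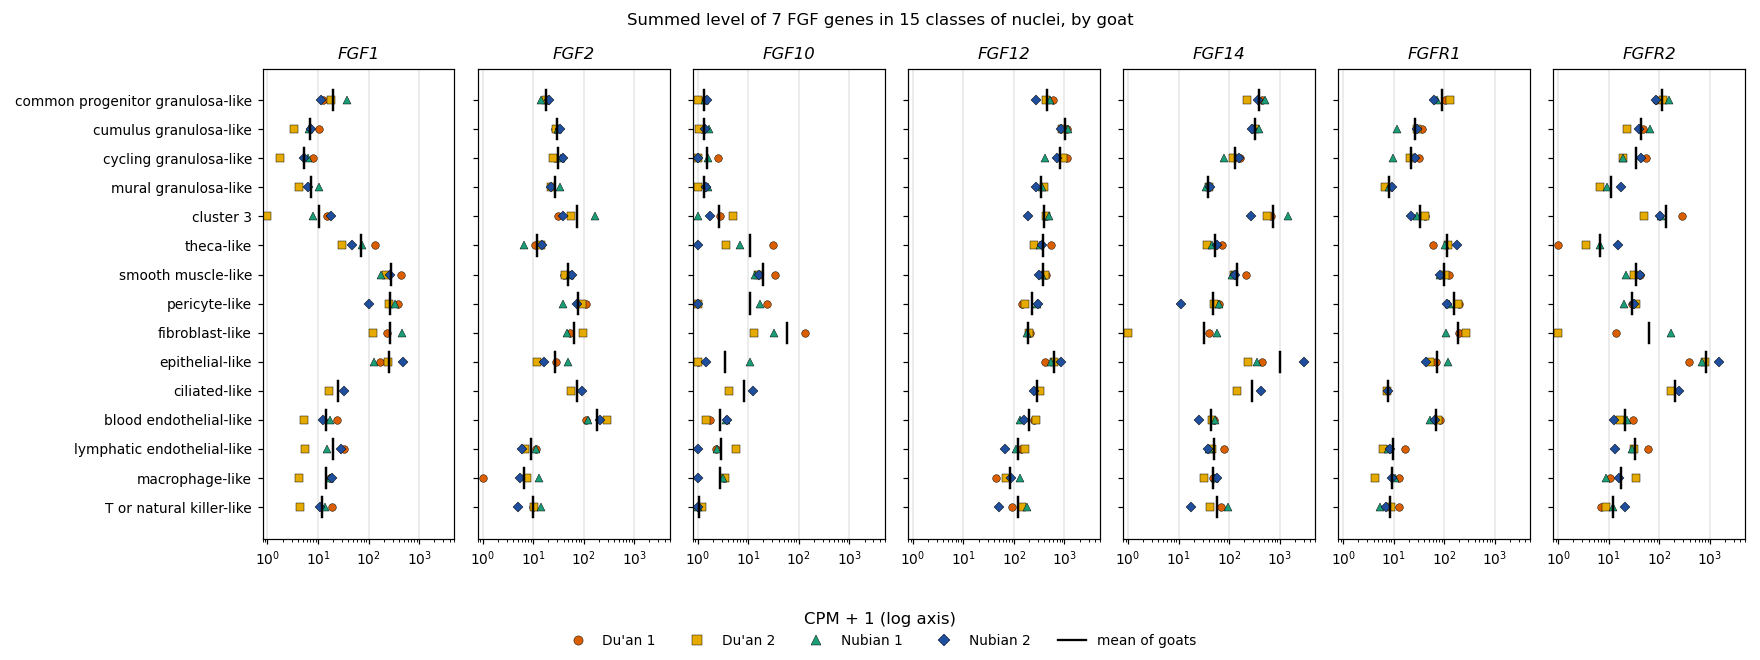
Summed level of each FGF gene in each class of nuclei. Each panel is 1 gene, rows are classes, symbols are goats, the vertical bar is the mean of the goats, and the horizontal axis is CPM + 1 on a log scale. FGF1 has its highest means in smooth muscle-like, fibroblast-like, pericyte-like and epithelial-like nuclei, with theca-like Du'an 1 (131 CPM) inside their range, and FGF14 in epithelial-like nuclei reaches 3014 CPM in Nubian 2.

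FGF1, a ligand that can bind all classical FGF receptors, was highest in mesenchymal and epithelial nuclei. In smooth muscle-like nuclei it reached 432 CPM in Du'an 1, 225 CPM in Du'an 2, 173 CPM in Nubian 1 and 269 CPM in Nubian 2, a mean of 275 ± 112 CPM (SD, n = 4). The means were 269 ± 170 CPM in fibroblast-like nuclei (n = 3), 265 ± 121 CPM in pericyte-like nuclei (n = 4) and 254 ± 163 CPM in epithelial-like nuclei (n = 4). The lowest goat in these 4 classes, Nubian 2 in pericyte-like nuclei at 103 CPM, lay below the highest theca-like value, 131 CPM in Du'an 1, and above every value of the other 10 classes. The log2 differences from the other classes were 3.43 (SE 0.22) in smooth muscle-like, 3.31 (SE 0.32) in fibroblast-like, 3.24 (SE 0.30) in pericyte-like and 3.54 (SE 0.26) in epithelial-like nuclei, with edgeR adjusted p-values of 2.23e-18, 4.03e-12, 1.09e-12 and 1.96e-16. Among 14 steps in the order of class means, only that from epithelial-like to theca-like nuclei (70.0 ± 44.9 CPM) passed the test, by 2.60 on the log2 scale (edgeR adjusted p = 4.1e-05). For this and the other genes the order came from the same values, which the p-values of such steps do not allow for. A step that did not pass does not show equal levels. Granulosa-like nuclei held little FGF1, with means of 19.0 CPM in the common progenitor-like, 6.11 CPM in the mural-like, 5.88 CPM in the cumulus-like and 4.34 CPM in the cycling state. FGF1 was called lower in 7 classes, namely the cumulus-like, cycling and mural-like granulosa states, cluster 3, and the blood endothelial-like, macrophage-like and T or natural killer-like nuclei. The call in cluster 3 was lost without Du'an 1, Nubian 1 or Nubian 2, with log2 differences of -1.07, -0.98 and -1.47. The macrophage-like difference, -1.40, turned to 1.45 at clustering resolution 0.4.

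FGF2, a ligand known for its action on endothelium, was highest in blood endothelial-like nuclei. There it stood at 110.3 CPM in Du'an 1, 291 CPM in Du'an 2, 118 CPM in Nubian 1 and 213 CPM in Nubian 2, a mean of 183 ± 85.6 CPM (n = 4) and a log2 difference of 2.90 (SE 0.19, edgeR adjusted p = 3.88e-19). The lowest of these goats was above every goat of the other classes except Nubian 1 in cluster 3, at 163 CPM, a value from 23 UMIs in 4 of 48 nuclei, 20 of them in 1 nucleus. The step down to pericyte-like nuclei (77.3 ± 30.1 CPM), 1.53 on the log2 scale, passed the test (edgeR adjusted p = 0.00161), and none of the other 13 steps did. Lymphatic endothelial-like nuclei, the other endothelial class, stood at 7.93 ± 2.90 CPM, a log2 difference of -1.78 (edgeR adjusted p = 3.35e-05). FGF2 was also higher in ciliated-like (log2 difference 1.63), pericyte-like (1.27), cluster 3 (1.03) and smooth muscle-like nuclei (0.78). The ciliated-like and smooth muscle-like calls were lost without Nubian 2, at 1.02 and 0.74, and the pericyte-like call was lost without Du'an 1, at 0.92. FGF2 was lower in macrophage-like (-2.34), T or natural killer-like (-1.77) and theca-like nuclei (-1.71), and the theca-like call was lost without Du'an 2 (-1.85) or Nubian 2 (-1.83). Single blood endothelial-like nuclei held up to 12 FGF2 UMIs in Du'an 1, 56 in Du'an 2, 14 in Nubian 1 and 40 in Nubian 2, among 63, 152, 78 and 46 nuclei with a UMI.

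FGF10, a mesenchymal ligand that acts mainly on the epithelial form of FGFR2, was rare. Fibroblast-like nuclei held 10 FGF10 UMIs in Du'an 1, 2 in Du'an 2 and 51 in Nubian 1, or 129, 12.2 and 31.3 CPM. Smooth muscle-like nuclei held 120 UMIs in Du'an 1, 19 in Du'an 2, 59 in Nubian 1 and 44 in Nubian 2, or 33.0, 14.8, 12.4 and 15.3 CPM. In the order of means no neighbouring classes, these included, passed the test. Against the other classes FGF10 was higher in fibroblast-like (edgeR adjusted p = 4.4e-10) and smooth muscle-like nuclei (edgeR adjusted p = 6.31e-13), and both calls held without each goat in turn. FGF10 was low in most sums and passed the count filter mainly through classes where it was high. These p-values do not allow for that and are no independent support. The fitted log2 differences, 4.29 and 3.34, rest in part on classes with sums of 0 UMIs and are no measure of size. Pericyte-like and ciliated-like nuclei were also called higher on 0 to 6 UMIs per goat, and the calls were lost without Nubian 2 in ciliated-like nuclei and without Du'an 1 or Nubian 1 in pericyte-like nuclei. The 4 granulosa-like states and the T or natural killer-like nuclei were called lower, on 0 to 13 UMIs per goat. All 4 lower calls in granulosa-like states were lost without Du'an 2, that in common progenitor-like nuclei also without Du'an 1, that in cycling nuclei also without Nubian 1 or Nubian 2, and that in T or natural killer-like nuclei without Nubian 1.

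**Figure D2:**
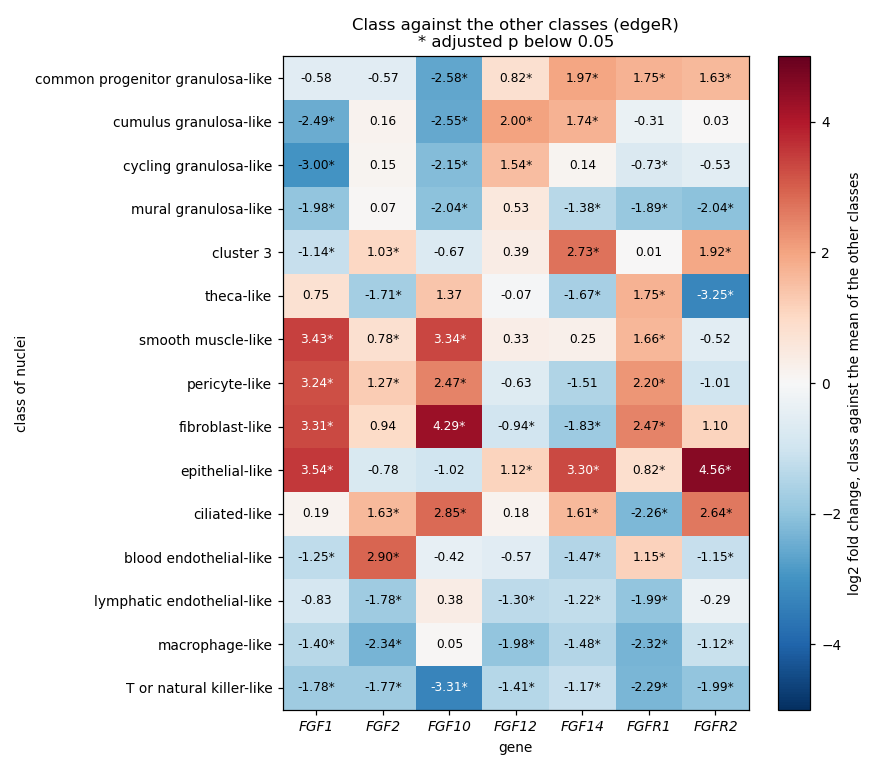
Log2 difference of each FGF gene in each class from the mean of the other classes (edgeR), rows classes and columns genes, with red for higher and blue for lower and an asterisk for an adjusted p below 0.05. FGFR2 in epithelial-like nuclei is the highest value at 4.56, and T or natural killer-like nuclei are lower for all 7 genes.

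FGF12, an intracellular factor that modulates sodium channels, had its highest means in cumulus-like and cycling granulosa-like nuclei. Cumulus-like nuclei held 1097 CPM in Du'an 1, 887 CPM in Du'an 2, 1179 CPM in Nubian 1 and 854 CPM in Nubian 2, a mean of 1004 ± 159 CPM (n = 4), which was 2.00 higher on the log2 scale than the other classes (SE 0.19, edgeR adjusted p = 1.06e-12). Cycling granulosa-like nuclei followed with 809 ± 315 CPM (log2 difference 1.54), epithelial-like nuclei with 611 ± 195 CPM (1.12) and common progenitor-like nuclei with 455 ± 138 CPM (0.82). The cumulus-like and cycling values overlapped, since Du'an 1 and Du'an 2 had 1145 and 953 CPM in cycling nuclei while Nubian 1 had 412 CPM. The epithelial-like call was lost without Nubian 2 (0.55). Mural granulosa-like nuclei, at 339 ± 65.3 CPM (n = 3), were at rank 8 of 15 and were not called (0.53, edgeR adjusted p = 0.104). FGF12 was lower in macrophage-like (81.6 ± 37.7 CPM), T or natural killer-like (117 ± 57.2 CPM), lymphatic endothelial-like (119 ± 40.6 CPM) and fibroblast-like nuclei (193 ± 14.6 CPM). The fibroblast-like call was lost without any of Du'an 1 (-0.90), Du'an 2 (-0.97) or Nubian 1 (-0.95). None of the 14 steps between neighbouring classes passed the test.

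FGF14, the second intracellular factor, had its highest mean in epithelial-like nuclei, and there 1 goat set the level. Nubian 2 stood at 3014 CPM, while Du'an 1 had 452 CPM, Du'an 2 237 CPM and Nubian 1 358 CPM, for a mean of 1015 ± 1335 CPM (n = 4). The log2 difference was 3.30 (SE 0.31, edgeR adjusted p = 8.82e-13) with all goats and 1.39 without Nubian 2 (edgeR adjusted p = 2.29e-05). In Nubian 2, 318 of 393 epithelial-like nuclei held an FGF14 UMI, with a median of 7 and a maximum of 199 UMIs. In Du'an 1, Du'an 2 and Nubian 1 the counts were 9 of 25, 20 of 91 and 11 of 35 nuclei, with a median of 0 UMIs in each goat. The epithelial-like nuclei of Nubian 2 also had the highest summed stromal markers of that class (1948 CPM, against 961 to 1596 CPM) and a median depth of 4471 UMIs (1710 to 3797 in the other goats). Their part in the result was not tested.

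Cluster 3 was the second class for FGF14, with 666 CPM in Du'an 1, 550.1 CPM in Du'an 2, 1473 CPM in Nubian 1 and 272 CPM in Nubian 2 (740.3 ± 516 CPM, log2 difference 2.73, edgeR adjusted p = 1.23e-10). Its UMIs were spread unevenly over the nuclei of this cluster. In Nubian 2, 474 of 2827 nuclei held an FGF14 UMI, and the 10% of nuclei with the highest counts carried 94.2% of the UMIs. In Du'an 1, 804 of 2024 nuclei did, and the top 10% carried 76.8%. Common progenitor-like (390.1 ± 124 CPM, 1.97), cumulus-like (331 ± 45.1 CPM, 1.74) and ciliated-like nuclei (287 ± 204 CPM, 1.61, lost without Nubian 2 at 0.82) were also higher. FGF14 was lower in 7 classes, including mural granulosa-like nuclei at 37.7 ± 3.39 CPM (-1.38, and -1.10 without Nubian 1, where the call was lost). The other lower classes were the theca-like, fibroblast-like, macrophage-like, T or natural killer-like and both endothelial-like classes. Of these, the theca-like and fibroblast-like calls were lost without any of Du'an 1, Du'an 2 or Nubian 1, and the lymphatic call without Nubian 1 (-1.02). Without Nubian 2 the T or natural killer-like difference moved from -1.17 to -0.74 and was still called. Among 14 neighbouring steps only that from cycling granulosa-like (130 ± 39.1 CPM) to T or natural killer-like nuclei (55.7 ± 34.1 CPM) passed the test, by 1.22 on the log2 scale (edgeR adjusted p = 0.0358).

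FGFR1, a receptor widely expressed in mesenchyme, was highest in fibroblast-like and pericyte-like nuclei. Fibroblast-like nuclei held 193 CPM in Du'an 1, 274 CPM in Du'an 2 and 106 CPM in Nubian 1 (191 ± 84.1 CPM, n = 3, log2 difference 2.47, edgeR adjusted p = 1.24e-11). Pericyte-like nuclei stood at 153 ± 41.2 CPM (2.20), theca-like nuclei at 115 ± 47.7 CPM (1.75), smooth muscle-like nuclei at 97.4 ± 20.1 CPM (1.66) and common progenitor granulosa-like nuclei at 90.95 ± 29.9 CPM (1.75). Blood endothelial-like nuclei at 67.4 ± 13.0 CPM (1.15) and epithelial-like nuclei at 69.9 ± 32.6 CPM (0.82) were higher than the other classes as well, and the epithelial-like call was lost without Nubian 1 (0.58) or Nubian 2 (0.94). The endothelial classes were apart in every goat, as lymphatic endothelial-like nuclei held 5.27 to 15.6 CPM and blood endothelial-like nuclei 50.7 to 81.0 CPM. FGFR1 was lower in lymphatic endothelial-like (-1.99), macrophage-like (-2.32), T or natural killer-like (-2.29), ciliated-like (-2.26), mural granulosa-like (-1.89) and cycling granulosa-like nuclei (-0.73). The ciliated-like call was lost without Du'an 2 (-2.12) or Nubian 2 (-2.54), and the cycling call was lost without Du'an 2 (-0.66) or Nubian 1 (-0.49). The macrophage-like difference turned to 0.26 at clustering resolution 0.4. Of 14 neighbouring steps, 3 passed the test, namely common progenitor-like over epithelial-like, blood endothelial-like over cluster 3, and cycling granulosa-like over lymphatic endothelial-like nuclei.

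FGFR2, the receptor whose epithelial form binds FGF10 and FGF7, led in epithelial-like nuclei. It stood there at 383 CPM in Du'an 1, 806 CPM in Du'an 2, 706 CPM in Nubian 1 and 1511 CPM in Nubian 2 (852 ± 475 CPM, n = 4), above every goat of every other class. The log2 difference of 4.56 (SE 0.27, edgeR adjusted p = 7.49e-20) did not fall below 4.13 when any goat was left out. The step down to ciliated-like nuclei (207 ± 51.1 CPM) was 1.79 on the log2 scale and the only one of 14 that passed (edgeR adjusted p = 0.0449). Ciliated-like (2.64), cluster 3 (135 ± 103 CPM, 1.92) and common progenitor granulosa-like nuclei (110.2 ± 33.9 CPM, 1.63) were also higher. In cluster 3 the 284 CPM of Du'an 1 stood above 48.2 to 106 CPM in the other goats, and without Du'an 1 the log2 difference was 1.09 and not called (edgeR adjusted p = 0.0632). FGFR2 had its lowest mean in theca-like nuclei, with 0, 2.60, 5.74 and 14.1 CPM in Du'an 1, Du'an 2, Nubian 1 and Nubian 2. These values rest on 0, 1, 1 and 4 UMIs, so the log2 difference of -3.25 (edgeR adjusted p = 0.00356) is no measure of size. For FGFR1, theca-like nuclei were at rank 3 of 15. Mural granulosa-like nuclei (10.1 ± 5.51 CPM) were lower by -2.04. The lower call in blood endothelial-like nuclei (-1.15) was lost without Du'an 2 (-1.16), Nubian 1 (-0.96) or Nubian 2 (-0.87), and that in macrophage-like nuclei (-1.12) without Du'an 1 (-0.95), Nubian 1 (-0.58) or Nubian 2 (-0.83), while without Du'an 2 the latter was -2.22 and at clustering resolution 0.4 it turned to 0.13. In fibroblast-like nuclei FGFR2 reached 169 CPM in Nubian 1, where 127 of 488 nuclei held a UMI, against 12.9 CPM in Du'an 1 and 0 in Du'an 2 on 23 and 47 nuclei, and the class was not called (edgeR adjusted p = 0.0966). It was called higher without Du'an 1 (1.44) or Du'an 2 (1.54).

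The granulosa-like states were then compared with each other. Common progenitor-like nuclei carried less of the granulosa markers (mean 2078 CPM) than cumulus-like (6996 CPM) and mural-like nuclei (7227 CPM). Pericyte-like and smooth muscle-like nuclei had means of 1669 and 1531 CPM of these markers. Cluster 3, which was not among the states, had 3301 CPM. Its mean FGFR2 (135 CPM) and FGF14 (740.3 CPM) were above those of common progenitor-like nuclei, and its mean FGFR1 (32.6 CPM) was below. Whether the differences of common progenitor-like nuclei lie within granulosa cells was not tested. FGF10 fell below the count filter of that fit, so 6 genes entered 4 contrasts. Of these 24 pairs, 6 were higher and 6 lower (edgeR, adjusted p below 0.05 over 12831 genes), where 13.8% and 12.8% of all gene and state pairs were called. Common progenitor-like nuclei had 4 of the 6 higher calls and 2 lower calls, in a contrast that called 20.7% of all genes higher and 20.1% lower. FGFR1 there stood at 103, 127, 71.2 and 62.4 CPM in Du'an 1, Du'an 2, Nubian 1 and Nubian 2, and FGFR2 at 83.6, 120, 154 and 83.4 CPM. Both ranges lay above every value of the other 3 states, whose highest goats had 34.6 CPM of FGFR1 and 63.3 CPM of FGFR2. The log2 differences were 2.52 (SE 0.22, edgeR adjusted p = 2.42e-06) for FGFR1 and 2.31 (SE 0.27, edgeR adjusted p = 3.01e-05) for FGFR2. FGF14 (1.70) and FGF1 (1.75) were higher too, while FGF2 (-0.72) and FGF12 (-0.57) were lower. The FGF12 call was lost without Du'an 1, Du'an 2 or Nubian 2, at -0.59, -0.54 and -0.45. Without Nubian 1 the FGF2 difference was -0.48, and with nuclei assigned by marker genes alone it turned to 0.13.

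Cumulus-like nuclei had 2 higher and 0 lower calls, where 9.49% and 9.24% of all genes were called. Both intracellular factors were higher, FGF12 by 0.92 (SE 0.17, edgeR adjusted p = 0.00403) and FGF14 by 1.33 (SE 0.17, edgeR adjusted p = 0.000618). Mural-like nuclei were higher for 0 genes and lower for 4, where 10.9% and 12.8% of all genes were called. FGF14 was 33.8 to 40.1 CPM in the 3 goats with mural-like nuclei and 289 to 395 CPM in cumulus-like nuclei of the 4 goats, and the 2 states differed by 2.93 on the log2 scale (edgeR adjusted p = 0.000326). FGFR1 (-1.95), FGFR2 (-2.35) and FGF12 (-0.83) were lower in mural-like nuclei as well, and the FGF12 call was lost without Du'an 2 (-0.85) or Nubian 2 (-0.75). In the cycling state edgeR called none of the 6 genes (14.1% of all genes were higher and 9.06% lower), while 4 had an unadjusted p below 0.05 (35.6% of all genes) and the smallest adjusted p was 0.0682. DESeq2 called FGF1 lower there (-1.19, adjusted p = 0.0220), as did edgeR without the count filter (-1.17, edgeR adjusted p = 0.0382). At clustering resolution 0.4 FGF14 (-2.63, edgeR adjusted p = 0.000275) and FGFR2 (-1.54, edgeR adjusted p = 0.0381) were called lower in the cycling state. With nuclei assigned by marker genes alone, FGFR1 was called lower in it (-0.75, edgeR adjusted p = 0.0139). Without Nubian 1 FGF12 was called higher in that state (0.74, edgeR adjusted p = 0.00291). FGFR1 differed between each pair of states but cumulus-like against cycling, where the log2 difference was 0.25 (SE 0.30, edgeR adjusted p = 0.649), and the same held for FGFR2 (0.36, SE 0.36, edgeR adjusted p = 0.566). FGF14 did not pass between common progenitor-like and cumulus-like nuclei (0.28, SE 0.22, edgeR adjusted p = 0.378).

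**Figure D3:**
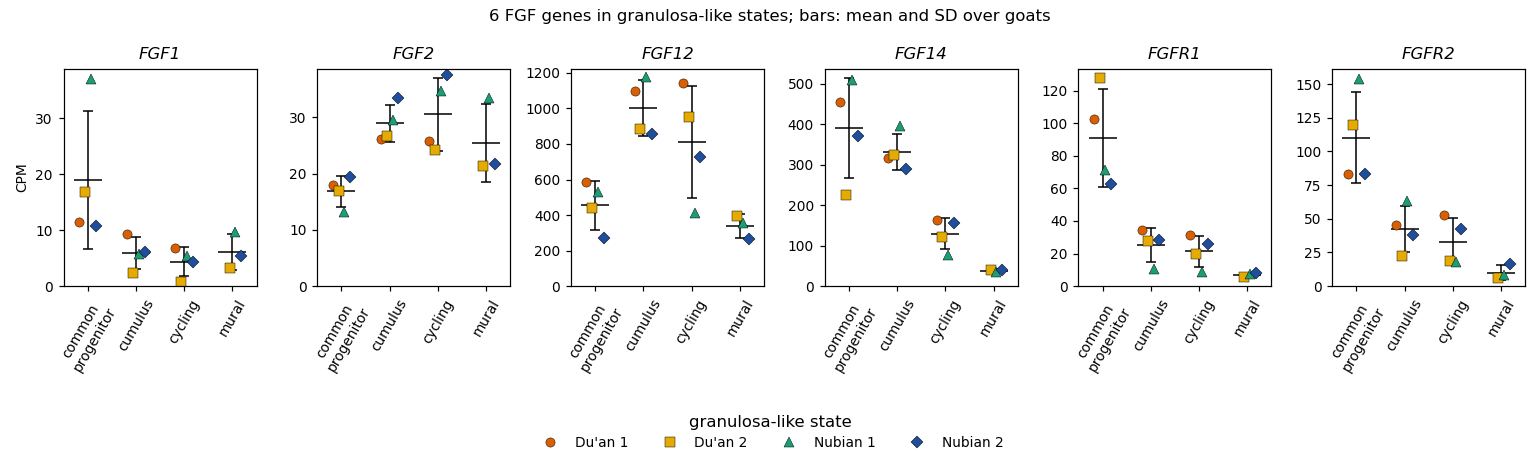
CPM of 6 FGF genes in the granulosa-like states, 1 panel a gene with its own axis from 0. Symbols are goats and bars the mean and SD over 4 goats, or 3 in mural-like nuclei. FGFR1 and FGFR2 are highest in common progenitor-like nuclei, where the lowest goats have 62.4 and 83.4 CPM, and FGF14 is lowest in mural-like nuclei at 33.8 to 40.1 CPM.

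Different clusters held most of a state in different goats. Of 3 cumulus-like clusters, 1 took 2028 of its 2381 nuclei from Du'an 2 and another 1935 of 2033 from Nubian 1, yet FGF12 ranged only from 897 to 1152 CPM among the 3 clusters. FGF14 was 211 CPM in the cluster shared by Du'an 1, Du'an 2 and Nubian 2 and 393 to 410 CPM in the other 2. A common progenitor-like cluster of 101 nuclei from Nubian 1 differed from the main one of 2321 nuclei, with 157 against 12.8 CPM of FGF1, 25.8 against 431 CPM of FGF14, 28.3 against 90.2 CPM of FGFR1 and 20.6 against 103 CPM of FGFR2. Among the 4 mural-like clusters the levels of FGF14 were 29.6 to 42.4 CPM, and FGF1 reached 29.8 CPM in a cluster of 640 nuclei, 624 of them from Nubian 1. The cycling state joined a cluster of 969 nuclei with one of 774 nuclei, 730 of them from Nubian 1, and these held 972 against 311 CPM of FGF12, 181 against 26.8 CPM of FGF14, 25.7 against 6.24 CPM of FGFR1 and 36.7 against 14.9 CPM of FGFR2. Mural markers in cycling nuclei summed to 681 to 8488 CPM, highest in Nubian 1, and their part in the results was not tested.

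The authors also deposited tables of genes they called markers of 3 granulosa subtypes and 4 follicle stages, with the pooled share of nuclei in which each gene was seen. In the authors' pooled values FGFR2 was seen in 25.5% of common progenitor nuclei and in 25.6% at the primordial stage. FGF12 was seen in 77.7% of cumulus nuclei, in 78.2% at the primary stage and in 79.9% at the secondary stage. FGF14 was listed for common progenitor (33.0%) and cumulus nuclei (36.8%) and for the primordial (32.9%), primary (37.3%) and secondary stages (34.1%). None of the 7 genes was listed for mural nuclei or the antral stage, and FGF1, FGF2, FGF10 and FGFR1 were not listed for any group. These tables hold listed markers, pool the goats and are not corrected for depth, so no error can be given.

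Shares of nuclei with a UMI depend on depth, and therefore each nucleus was thinned to 1000 UMIs in the 11 classes with at least 20 such nuclei in every goat. T or natural killer-like nuclei were taken as a reference class. That they lack these genes was assumed and not tested. Their thinned shares were 10.1% for FGF12, 3.64% for FGF14, 1.38% for FGF1, 1.21% for FGFR1, 1.09% for FGFR2 and 0.706% for FGF2. FGF12 was seen in 52.1% of cumulus-like nuclei, with 54.5% in Du'an 1, 49.1% in Du'an 2, 58.3% in Nubian 1 and 46.4% in Nubian 2. Its share in macrophage-like nuclei (7.43%) was below that of the reference class, and that in lymphatic endothelial-like nuclei (10.2%) was close to it. FGFR2 was seen in 43.0% of epithelial-like nuclei (23.8% to 69.1% by goat), and FGF14 in 30.6% of them, from 7.95% in Du'an 2 to 70.0% in Nubian 2. FGF1 reached 20.8% in smooth muscle-like nuclei (13.6% to 30.6%) and 20.3% in epithelial-like nuclei (11.8% to 34.4%). Smooth muscle-like nuclei had a median depth of 1044 UMIs, with 939 in Du'an 1 and 890 in Nubian 2. Most of their nuclei in these 2 goats were therefore left out, and the shares cover only the deeper nuclei of that class. Among the 11 classes, FGF2 reached 11.0% in blood endothelial-like nuclei (6.05% to 14.2%) and FGFR1 10.04% in theca-like nuclei. FGF10 reached at most 1.42% in these classes, in smooth muscle-like nuclei. No thinned share exists for the fibroblast-like class, which had the highest mean CPM of FGF10 (57.4 CPM) and FGFR1 (191 CPM). The same holds for the pericyte-like class, second for FGFR1 at 153 CPM, and for the mural granulosa-like and ciliated-like classes. Unthinned, at a median of 4219 UMIs a nucleus, FGF12 was seen in 76.6% of cumulus-like nuclei, against 19.5% of T or natural killer-like nuclei at 2289 UMIs.

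**Figure D4:**
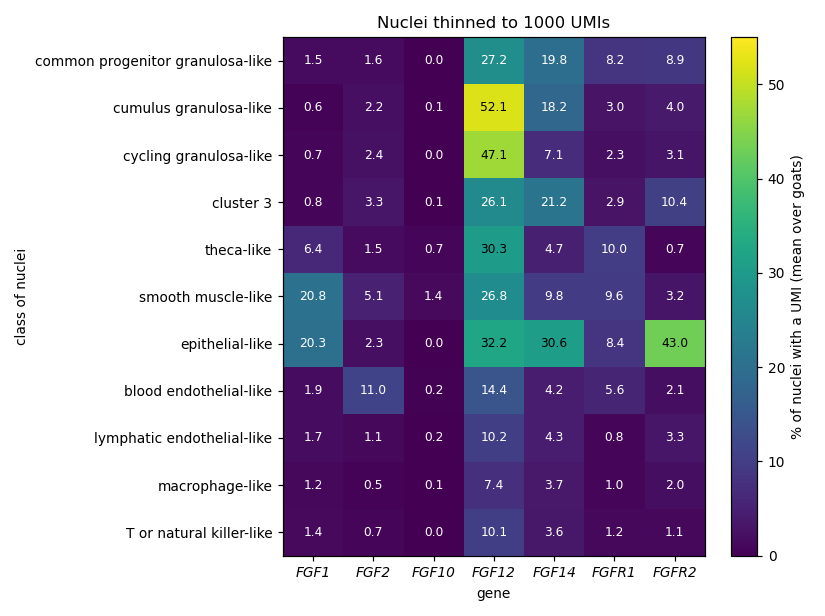
Mean share over goats, in percent, of nuclei with at least 1 UMI of each FGF gene after thinning to 1000 UMIs, with classes in rows and genes in columns. FGF12 in cumulus-like nuclei has the highest share at 52.1%, and its share in T or natural killer-like nuclei is 10.1%.

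The breeds were compared within each of the 12 classes with a sum in all 4 goats, the question being whether FGF genes differed between the polytocous and monotocous animals. edgeR called none of the 65 gene and class pairs, and 7 had an unadjusted p below 0.05. DESeq2 called none either and had 4 with an unadjusted p below 0.05. Over all genes 0.00652% of pairs were called higher and 0.000932% lower in Nubian goats, and 3.79% had an unadjusted p below 0.05. Counts were also simulated for cumulus-like nuclei, with a dispersion set to 0.1 and not estimated from these data. On them this design recovered 59.7% of genes changed 4-fold and 0.518% of those changed 2-fold, and recovery at the real spread may differ. The smallest unadjusted p belonged to FGFR1 in common progenitor-like nuclei, at 103 and 127 CPM in the Du'an goats and 71.2 and 62.4 CPM in the Nubian goats (log2 difference of Nubian from Du'an -0.83, SE 0.24, edgeR adjusted p = 1.0). FGF12 in blood endothelial-like nuclei was 244 and 277 CPM against 130 and 158 CPM (-0.85, SE 0.26, edgeR adjusted p = 1.0). FGF14 in epithelial-like nuclei had the widest difference, 2.37 (SE 0.91, edgeR adjusted p = 1.0), from the 3014 CPM of Nubian 2. Without Nubian 1 that difference was 3.30 and called (edgeR adjusted p = 0.000764), with Nubian 2 then the lone goat of its breed and assumed to vary like the others. In cumulus-like nuclei the 6 differences lay between -0.71 and 0.56, with FGF12 at -0.02 (SE 0.22) and FGF14 at 0.04 (SE 0.19).

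**Figure D5:**
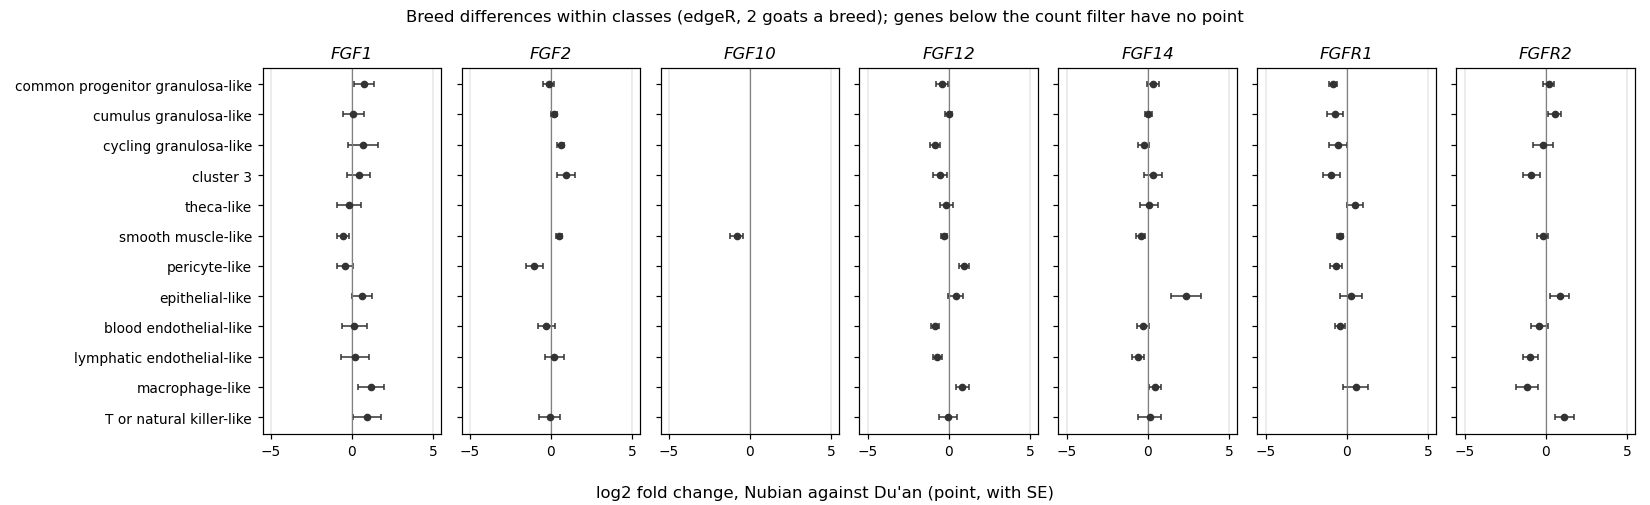
Log2 difference of Nubian from Du'an goats for each FGF gene within each class, with its standard error (edgeR, 2 goats a breed). Genes without a point fell below the count filter. No pair passed an adjusted p of 0.05, and FGF14 in epithelial-like nuclei lies farthest from 0 at 2.37.

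For each FGF gene, the genes most like it were those with the highest Pearson r over the 15 class means of log2(CPM + 1), given as a description. The genes were SCUBE2 (r = 0.94), KCNT2 (0.94) and PDE1A (0.94) for FGF1, BMPER (0.84), ADGRL2 (0.79) and MCC (0.77) for FGF2, and CERCAM (0.94), LOXL1 (0.93) and PEG3 (0.89) for FGF10. They were UBXN2B (0.91), TYRO3 (0.91) and RAVER2 (0.89) for FGF12, and DACH2 (0.88) and GRIP1 (0.88) were among those for FGF14. SYNPO2, LOC108634816 and SPARC (each 0.88) were most like FGFR1, and EMX2 (0.87), LOC106502219 (0.87) and ARHGEF4 (0.86) most like FGFR2. Among the FGF genes themselves FGF14 and FGFR2 were most alike (0.81), followed by FGF1 and FGF10 (0.73) and FGF1 and FGFR1 (0.70), and FGF10 and FGF14 least (-0.35). The 15 points share libraries and depth.

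Of 15 further secreted FGF genes, 3 had enough counts in the class fit. Genes named from this and the following lists were picked by their largest log2 differences. Those near 0 outside the named class could pass the count filter through that class. Their p-values do not allow for this and are no independent support. FGF7, a mesenchymal ligand of epithelial FGFR2, was higher in fibroblast-like nuclei (106 ± 124 CPM, against 5.37 CPM over the other classes, edgeR adjusted p = 3.04e-14) and was also called in smooth muscle-like, pericyte-like, ciliated-like and common progenitor-like nuclei. FGF18 was higher in lymphatic endothelial-like nuclei (9.19 ± 7.13 CPM, edgeR adjusted p = 9.29e-08) and FGF9 in ciliated-like nuclei (31.9 ± 0.32 CPM, n = 2, edgeR adjusted p = 4.81e-08). FGF18 was also called higher in epithelial-like nuclei, and FGF9 in epithelial-like, lymphatic endothelial-like and common progenitor-like nuclei. Among the granulosa-like states, FGF7 (9.75 ± 15.1 CPM) and FGF9 (6.93 ± 2.39 CPM) were higher in common progenitor-like nuclei. The other homologous factors, FGF13 and FGF11, were both higher in epithelial-like and cumulus-like nuclei, where FGF12 and FGF14 were higher as well. FGF13 was also called higher in cluster 3 and FGF11 in smooth muscle-like and mural-like nuclei. FGF13 was 123 ± 24.9 CPM in lymphatic endothelial-like nuclei (log2 difference 3.78, edgeR adjusted p = 3.62e-16), where FGF12 and FGF14 were lower, and FGF11 was 27.9 ± 14.4 CPM in epithelial-like nuclei (1.91, edgeR adjusted p = 0.000248). In the state contrasts FGF13 was higher in cumulus-like (2.23) and FGF11 in mural-like nuclei (1.07).

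Voltage-gated sodium channel genes, the partners of the intracellular factors, were measured for 11 of 13 listed members. In lymphatic endothelial-like nuclei 4 were higher and 0 lower, where 18.4% and 7.03% of all genes were called, with SCN3A at 311 ± 163 CPM and SCN3B at 71.7 ± 28.1 CPM against 1.34 and 1.02 CPM over the other classes. The median log2 difference of the list there was 1.12, against 0.05 over all genes. In cumulus-like nuclei 3 were higher and 1 lower (19.9% and 14.1% of all genes), and SCN10A and SCN9A were lower in mural-like nuclei than in the other granulosa states, at 18.2 ± 12.4 and 40.6 ± 16.8 CPM against 139 and 134 CPM.

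Among 9 other receptor and coreceptor genes, 7 were measured in the class fit. KL, which encodes the coreceptor Klotho, was higher in blood endothelial-like nuclei (65.4 ± 28.7 CPM, against 1.30 CPM over the other classes, edgeR adjusted p = 2.82e-25). FLRT1 was higher in theca-like nuclei (22.9 ± 16.2 CPM, against 1.77 CPM over the other classes, edgeR adjusted p = 3.76e-08). Both were near 0 outside the named class. The adhesion molecule NCAM1, which can interact with FGFR1, was 4247 ± 780.2 CPM in common progenitor-like nuclei (log2 difference 4.09, edgeR adjusted p = 1.62e-21) and 4.79 above the other granulosa states. CDH2, another adhesion partner, was lower in mural-like nuclei than in the other states (751 ± 291 CPM against 2992 CPM, -1.77, edgeR adjusted p = 0.000518).

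Of 25 FGF-binding and heparan sulfate genes, 21 were measured. In common progenitor-like nuclei 13 were higher and 1 lower than in the other classes, where 17.5% and 9.45% of all genes were called, and 9 higher and 4 lower than in the other granulosa states (20.7% and 20.1% of all genes). In mural-like nuclei 4 were higher and 9 lower than in the other states (10.9% and 12.8% of all genes). SULF1, a sulfatase that trims heparan sulfate, was 506 ± 106 CPM in fibroblast-like nuclei (log2 difference 4.15, edgeR adjusted p = 1.28e-15) and 131 ± 70.5 CPM in common progenitor-like nuclei. The syndecan genes SDC3 and SDC1 were higher in macrophage-like (61.9 ± 20.6 CPM, 4.58) and ciliated-like nuclei (17.8 ± 7.27 CPM, n = 2, 4.19).

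Receptor adaptors and members of the RAS-MAPK relay, all 19 of them measured in the class fit, showed smaller differences. In T or natural killer-like nuclei 10 were higher and 4 lower (30.1% and 21.4% of all genes), among them HRAS (10.1 ± 10.4 CPM, log2 difference 2.42) and GAB1 (49.97 ± 28.3 CPM, -2.37). PLCG1, a phospholipase recruited by activated receptors, was 149 ± 34.8 CPM in lymphatic endothelial-like nuclei (2.45, edgeR adjusted p = 1.22e-20). Between granulosa states, FRS2, the main FGF receptor adaptor, was higher in common progenitor-like nuclei (555 ± 141 CPM against 325 CPM, 0.77, edgeR adjusted p = 0.000587), where 5 of 18 members were higher and 2 lower (20.7% and 20.1% of all genes), and SHC1 was lower in cumulus-like nuclei (-0.83, edgeR adjusted p = 0.0181).

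Feedback inhibitors and transcriptional targets of FGF signalling numbered 16, of which 14 were measured in the class fit and 11 in the state fit. In common progenitor-like nuclei 10 of 11 were higher than in the other granulosa states and 0 lower, where 20.7% and 20.1% of all genes were called, and the median log2 difference of the list was 2.14 against -0.04 over all genes. The ETS factors ETV5 (4.48 ± 2.76 CPM against 0.38 CPM, edgeR adjusted p = 0.000183) and ETV1 (15.2 ± 8.80 CPM against 1.25 CPM, edgeR adjusted p = 6.75e-07) were among them, at low levels. Genes this low in the other states could pass the count filter through the common progenitor-like sums. The count, the median and the p-values do not allow for that and are no independent support. The list also holds FOS and EGR1, which respond to many stimuli. Mural-like nuclei had 0 higher and 4 lower of the 11, with a median of -1.03, against 10.9% and 12.8% of all genes. Across classes 8 of 14 were higher in blood endothelial-like (20.8% of all genes), 7 in fibroblast-like (11.9%), 7 in lymphatic endothelial-like (18.4%) and 6 in epithelial-like nuclei (15%), with 0 lower in each of these classes. Macrophage-like nuclei had 6 higher and 2 lower (30.6% and 21.8%), and common progenitor-like nuclei 6 higher and 1, SPRY1, lower (17.5% and 9.45%). Cumulus-like, cycling and mural-like nuclei each had 6 lower (14.1%, 17.8% and 13.6% of all genes), with 0, 1 and 1 higher. SPRY4 was 29.0 ± 21.8 CPM in epithelial-like nuclei against 0.83 CPM over the other classes (edgeR adjusted p = 7.45e-13), SPRY1 54.2 ± 26.9 CPM in fibroblast-like nuclei (3.77) and DUSP6 122 ± 30.2 CPM in macrophage-like nuclei (3.80).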

How the data were processed

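Nuclei of 4 goat ovaries had been sequenced as 10x Genomics 3′ libraries, 1 per goat. The authors counted UMIs per gene and nucleus with Cell Ranger (version 5.0.0 in the submitters' processing notes, 3.1.0 in the matrix headers), and these raw UMI counts were deposited as filtered matrices. The genome build was not used here. The authors also deposited Seurat marker tables, of which the pooled fractions of nuclei with a gene were read as the authors' values, printed as percentages. Their fold changes, p-values and shares in the other clusters were not used.

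Nuclei with UMI or gene numbers beyond 2 SD of the mean of a library or over 20% mitochondrial UMIs were removed, as were nuclei that Scrublet marked as doublets. This left 44740 nuclei with medians of 1755 to 3317 UMIs per goat and 19712 genes. Scrublet marked 0.317% of nuclei, which is too few for a working doublet call, so doublets remain. Clustering (scanpy 1.11.5, 2000 variable genes, 30 principal components, Leiden resolution 0.8, granulosa nuclei again at 0.5) left out the FGF, pathway and marker genes. Classes were named from marker lists, and the limits for naming were set after the data were seen. The FGF genes, gene lists and markers were chosen with earlier results of these data known.

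UMI counts were summed per goat and class (at least 20 nuclei) and tested with edgeR 4.0.16 (R 4.3.3, TMM, quasi-likelihood, Benjamini-Hochberg over all genes of a contrast), with goat as a block for classes and states and no block for breeds. A gene low in most classes could pass the count filter through the classes where it was high, and its p-values do not allow for that. The script was tested on data simulated with a dispersion set to 0.1. There 4-fold changes were recovered for 95.4% of genes in the class test and 98.4% in the state test. For 2-fold changes the shares were 47.2% and 39.4%. False calls were 8.54% of calls at 2-fold and 4.57% at 4-fold in the class test, and 0% and 2.06% in the state test. DESeq2 1.42.0, other scalings, filters, clusterings and left-out goats were alternatives. CPM values scale a class sum to 1000000 UMIs. Shares after thinning to 1000 UMIs left out 3223 of 17350 Du'an and 4198 of 22652 Nubian nuclei. From each of 7 pathway lists, genes were named by the largest log2 difference past the test, up to 3 over classes and 2 over granulosa states. Some genes that these rules name are not reported here.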

Additional observations from a re-analysis of the deposited data

Results flagged for a closer look

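Within a class, 7 of 84 sets of 4 goats had 1 goat farther from the others than Dixon's 95% critical value for 4 samples allows. For normally distributed values chance gives about 1 in 20. That rate need not hold for CPM values, some of them from 0 UMIs, and no share over all genes was computed. The sets span both breeds. FGF14 in epithelial-like nuclei stood at 3014 CPM in Nubian 2, and the nearest goat had 452 CPM. FGF14 in lymphatic endothelial-like nuclei stood at 77.9 CPM in Du'an 1, and the nearest goat had 44.1 CPM. FGF1 in macrophage-like nuclei was low in Du'an 2, at 3.23 CPM against 16.4 CPM in the nearest goat. FGF10 in smooth muscle-like nuclei was 33.0 CPM in Du'an 1 and 15.3 CPM in the nearest goat. The other 3 concern FGF10 on 0 or 1 UMI, namely 9.67 CPM in epithelial-like nuclei of Nubian 1, 0.210 CPM in T or natural killer-like nuclei of Du'an 2, and 0 CPM in macrophage-like nuclei of Nubian 2, where the nearest goat had 2.19 CPM.

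In 3 of 84 comparisons both Du'an goats lay on one side of the mean of the other classes and both Nubian goats on the other side, on the scale of log2(CPM + 1). FGF10 in blood endothelial-like nuclei was -1.13 in Du'an and 0.57 in Nubian goats, on 1 to 4 UMIs per goat. FGFR2 was 0.63 and -1.09 in lymphatic endothelial-like nuclei and 0.32 and -0.42 in smooth muscle-like nuclei. These differences in sign were not tested. No share over all genes was computed, so the count cannot be read as a difference between breeds.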

How the results depend on the processing

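Of 117 called differences, 71 kept their call under every alternative. The 117 are those of the FGF genes and of the listed genes picked for the largest log2 differences, not of all listed genes. With 1 goat left out, the number of FGF gene and class pairs called was 27 to 34 higher and 27 to 33 lower, pairs of gene and granulosa state 10 to 13, pairs differing between breeds 0 to 1, and pairs seen in at least 10% of thinned nuclei 16 to 20. Of the 71 calls between classes, 9 were lost without Du'an 1, 11 without Du'an 2, 13 without Nubian 1 and 12 without Nubian 2, and 0 turned direction. The call between breeds without Nubian 1 was FGF14 in epithelial-like nuclei, and that without Nubian 2 was FGFR2 in fibroblast-like nuclei (log2 difference 5.29, edgeR adjusted p = 8.9e-06, with Nubian 1 alone against 2 Du'an goats), a class not tested with all goats. At clustering resolution 0.4, with fewer classes, 21 pairs were lower in place of 38, and without thinning 39 pairs reached 10% of nuclei in place of 20.

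At resolution 0.4 the macrophage-like class turned direction for FGF1 (1.45), FGFR2 (0.13) and FGFR1 (0.26). With nuclei assigned by marker genes alone, FGF1 in common progenitor-like nuclei was 1.08 against the other classes, where it had been -0.58 and not called, and FGF2 was 0.13 against the other granulosa states. The cause was not tested.

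The labels do not say whether goats with the same replicate number were processed together. Deviations of goats with the same number correlated between -0.257 and 0.273 over 12 classes. With no reference for such values, they cannot decide it. With that number as a replicate block, 0 pairs were called between breeds, as with the crossed numbers, an alternative added after seeing the data. Without goat as a block, 33 pairs were higher, 34 lower and 11 differed between granulosa states. Leaving out nuclei with shared barcodes, also added later, gave 33, 38 and 12. FGF10, at 40 to 165 UMIs per goat, limits every statement on that gene by depth.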

Other observations

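In 2 shallow clusters that could not be named, the FGF genes were present at intermediate levels. The cluster of 2451 nuclei held 551 CPM of FGF12, 288 CPM of FGF14 and 14.6 CPM of FGF1, summed over the goats. The cluster of 2154 nuclei, 1650 of them from Nubian 1, held 351 CPM of FGF12, 109.6 CPM of FGF14 and 37.2 CPM of FGF1.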
